A study of Homo sapiens with 6 samples.

Results

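The sestrin genes and a set of genes known as targets of FOXO transcription factors were followed in C4-2B, a line of human prostate cancer cells of LNCaP descent. The set has 10 genes, SESN1, SESN2, SESN3, KLHL24, TNFSF10, TXNIP, CCNG2, BCL2L11, FOXO1 and RBL2, out of 11844 protein-coding genes in the deposited gene table, and each of the 10 was found there by its symbol. They have 20 of the 29964 transcripts in the transcript table. Stable sublines carried the empty pcDNA 3.1 plasmid (3 libraries) or the same plasmid with LINC00888, a long noncoding RNA (3 libraries), both grown in RPMI1640 medium with serum. The labels give LINC00888 at 15.27 ± 2.4 times the control (SD) by quantitative PCR. They do not say whether each library is a culture of its own, and they do not tell sublines within a group apart, so differences between sublines coincide with the groups. The 10 genes were chosen with values of this same comparison known, so their values are a description. Their number past the threshold of the fit over all genes is given only beside that of all genes, and supports nothing.

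FOXO proteins are forkhead transcription factors that enter the nucleus when signalling through PI3K and AKT is low. There they raise the transcription of genes for cell cycle arrest, stress resistance and cell death. Sestrins are stress-induced proteins that restrain the growth kinase complex mTORC1 by binding its regulator GATOR2, and Sestrin2 is also a sensor of leucine. SESN3 is the sestrin best known as a FOXO target, SESN1 is known as a target of p53, and SESN2 as a target of p53 and of the amino acid response factor ATF4.

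The start regions of 4 of the genes are shown because they carry, or for SESN3 lack, the letters that FOXO factors are known to bind. Searched on both strands were 4 motifs, the FOXO element GTAAACA, the insulin response element CAAAACA, the E-box CACGTG and the CCAAT box, in the RefSeq windows of GRCh38.p14 that run from 250 bases before to 50 bases after an annotated start. All 10 genes had a window, 14 windows in all. GTAAACA was in 1 window each of TXNIP and BCL2L11, and CAAAACA in that of KLHL24, with no window holding both. Of 35116 windows in the table, 3.42% hold the FOXO element and 4.92% the insulin response element. The E-box was in 1 window, that of CCNG2, against 7.26% of all windows, and the CCAAT box in 8 of the 14 windows, from 7 genes, against 34.6%. Capitals below mark a match to the FOXO or the insulin response element.
TXNIP: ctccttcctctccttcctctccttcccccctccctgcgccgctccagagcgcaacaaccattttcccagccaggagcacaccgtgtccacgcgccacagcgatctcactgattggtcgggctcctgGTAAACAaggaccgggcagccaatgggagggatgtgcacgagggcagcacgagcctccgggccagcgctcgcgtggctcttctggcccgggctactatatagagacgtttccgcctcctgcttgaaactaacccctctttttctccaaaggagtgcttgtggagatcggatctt
BCL2L11: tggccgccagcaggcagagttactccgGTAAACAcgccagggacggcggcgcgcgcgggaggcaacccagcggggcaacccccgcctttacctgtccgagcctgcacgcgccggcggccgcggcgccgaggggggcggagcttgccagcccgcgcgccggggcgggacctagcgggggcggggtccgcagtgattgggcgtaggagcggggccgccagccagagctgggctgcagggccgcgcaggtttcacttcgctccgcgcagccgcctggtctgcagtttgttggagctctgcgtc
KLHL24: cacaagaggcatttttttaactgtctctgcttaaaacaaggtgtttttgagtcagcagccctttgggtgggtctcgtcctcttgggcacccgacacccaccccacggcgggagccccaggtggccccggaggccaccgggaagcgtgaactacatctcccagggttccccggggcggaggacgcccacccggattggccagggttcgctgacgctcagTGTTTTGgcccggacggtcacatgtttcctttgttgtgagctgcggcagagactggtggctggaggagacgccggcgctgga
SESN3: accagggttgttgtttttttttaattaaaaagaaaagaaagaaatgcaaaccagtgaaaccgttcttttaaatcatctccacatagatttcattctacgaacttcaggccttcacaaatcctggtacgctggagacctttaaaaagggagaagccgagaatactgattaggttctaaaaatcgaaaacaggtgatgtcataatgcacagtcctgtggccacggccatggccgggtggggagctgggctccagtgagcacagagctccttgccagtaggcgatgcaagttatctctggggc
The TXNIP window is chr1:145996530-145996829 on the minus strand, with the match beginning 124 bases before the start. The BCL2L11 window is chr2:111120664-111120963 on the plus strand, with the match beginning 223 bases before the start. The KLHL24 window is chr3:183635373-183635672 on the plus strand, with the match on the opposite strand from 32 bases before the start. The SESN3 window is chr11:95232426-95232725 on the minus strand and holds none of the 4 motifs. Its start lies 1278 bases upstream of that of SESN3-203, the main listed transcript, whereas the windows shown for TXNIP, BCL2L11 and KLHL24 start within 21 bases of a listed transcript. A match of letters is not a binding site, and binding outside these windows was not examined.

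With LINC00888 the 3 sestrins went separate ways: SESN3 was 3.04-fold higher, SESN2 was 20.2% lower, and SESN1 had the same mean. SESN3 (ENSG00000149212.11_3, chromosome 11, 94898677 to 94965705, in the positions of the deposited table, whose build is not stated) stood at 10.1, 8.18 and 9.68 FPKM with the empty vector and at 30.2, 26.3 and 28.6 FPKM with LINC00888. The deposited positions are not those of GRCh38 given for the start regions. Of the 11844 gene identifiers, 11717 carry a suffix used for annotation mapped to GRCh37. FPKM is the number of fragments scaled to the length of the gene model and to the mapped fragments of the library. The lowest LINC00888 library was far above the highest empty vector library, and the ratio of means was 3.04, from 9.32 ± 1.01 to 28.3 ± 1.98 FPKM (SD, n = 3). Its fitted log2 fold change, 1.56, ranked 6 among 11726 genes. These are bulk samples, in which more cells with a transcript and more of it per cell cannot be told apart.

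SESN2 (ENSG00000130766.4_2, chromosome 1, 28586038 to 28609002) had FPKM values of 7.65, 7.93 and 7.45 with the empty vector and 5.98, 6.54 and 5.86 with LINC00888. All LINC00888 libraries lay below all empty vector libraries, at a ratio of 0.798. SESN1 (ENSG00000080546.13_2, chromosome 6, 109307640 to 109416022) had 3.15, 3.72 and 3.12 FPKM with the empty vector and 3.34, 3.54 and 3.10 with LINC00888. Its groups overlapped and their means were 3.33 ± 0.341 and 3.33 ± 0.216 FPKM (SD, n = 3). The FPKM of the 3 sestrins summed to between 19.8 and 20.9 in the empty vector libraries and between 36.4 and 39.5 with LINC00888. SESN3 made up 48.3%, 41.3% and 47.8% of that sum with the empty vector and 76.4%, 72.3% and 76.1% with LINC00888. SESN2 went from a mean share of 37.8% to 16.2%, so the most abundant sestrin was SESN3 in every library, by a small margin over SESN2 in empty vector library 2 and a wide one with LINC00888.

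**Figure D1:**
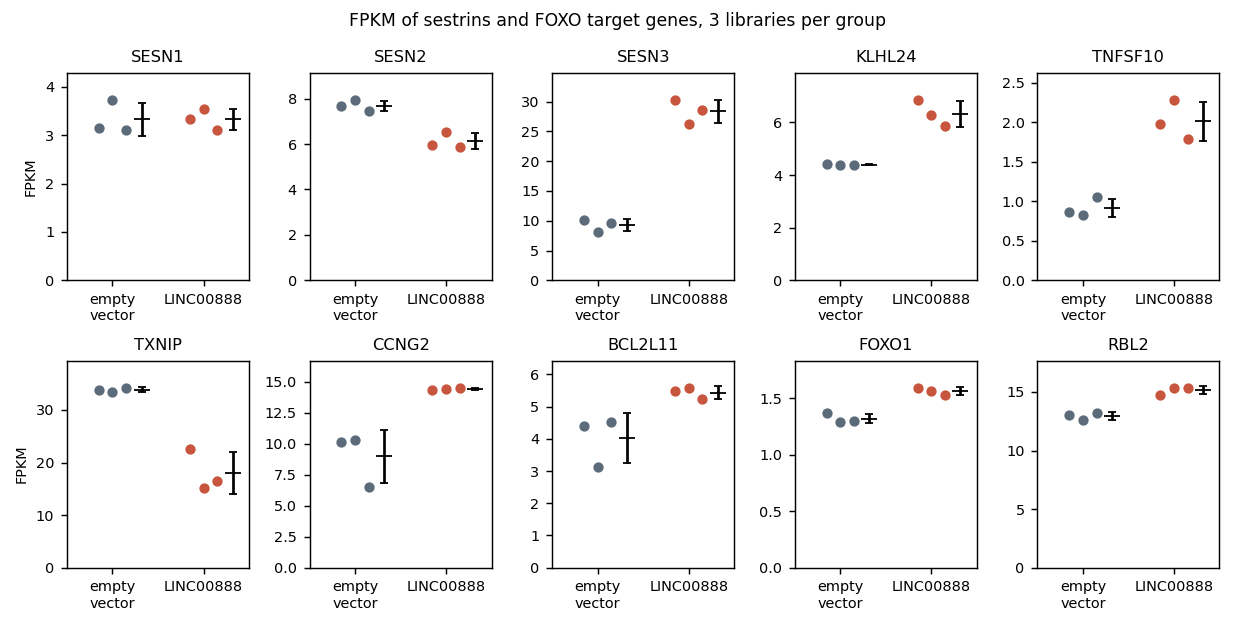
FPKM of the 10 genes by library, 3 empty vector (grey) and 3 LINC00888 (red) points per panel, with the mean and SD beside them; each axis starts at 0 and has its own range. SESN3 stands between 26.3 and 30.2 with LINC00888 against 8.18 to 10.1 with the empty vector, TXNIP and SESN2 are lower, and only SESN1 overlaps between groups.

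The FOXO factor gene in the set, FOXO1 (ENSG00000150907.7_3, chromosome 13, 41044090 to 41240734), was a little higher at a low level. It had FPKM values of 1.37, 1.29 and 1.30 with the empty vector and 1.59, 1.56 and 1.52 with LINC00888. The groups did not overlap, and the ratio of means was 1.18, which quantile normalization brought to 1.07. Among the other FOXO factors, which are not in the set and were tested with limma, FOXO3 rose from 9.11 ± 0.194 to 11.4 ± 0.79 FPKM (SD, n = 3; log2 fold change 0.31, adjusted p = 0.0241). FOXO6 rose from 2.24 ± 0.121 to 3.11 ± 0.0717 FPKM (log2 fold change 0.40, adjusted p = 0.0134). Both were higher in 3 of 3 libraries. FOXO4 had 3.68, 2.75 and 4.36 FPKM with the empty vector and 4.90, 3.66 and 3.35 with LINC00888 (adjusted p = 0.684). FOXO3 was the most abundant of the family, with 56.1% of the summed FPKM of the 4 genes in the empty vector group and 56.9% with LINC00888. The call of FOXO3 was lost when any single library was removed (up to 0.076) and that of FOXO6 without LINC00888 library 1 or 2 (up to 0.0538).

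The genes of cell death in the set, TNFSF10 and BCL2L11, both had higher values with LINC00888. TNFSF10 (ENSG00000121858.10_2, chromosome 3, 172223298 to 172241297) encodes TRAIL, a ligand that triggers apoptosis through death receptors. It had 0.866, 0.829 and 1.05 FPKM with the empty vector and 1.97, 2.28 and 1.79 with LINC00888, a ratio of 2.20 with no overlap, at one of the lowest levels of the set. BCL2L11 (ENSG00000153094.22_3, chromosome 2, 111876955 to 111926024) encodes BIM, a protein that starts apoptosis at mitochondria. It had 4.41, 3.13 and 4.51 FPKM with the empty vector and 5.49, 5.59 and 5.22 with LINC00888. The groups did not overlap, and the ratio of 1.35 was 1.22 without empty vector library 2, the low one.

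The cell cycle genes of the set were also higher in all LINC00888 libraries. CCNG2 (ENSG00000138764.14_3, chromosome 4, 78078304 to 78354542) encodes cyclin G2, an atypical cyclin linked to cell cycle arrest. It had 10.1, 10.3 and 6.55 FPKM with the empty vector and 14.3, 14.4 and 14.5 with LINC00888. Empty vector library 3 stood apart, and without it the ratio of 1.60 was 1.41. RBL2 (ENSG00000103479.15_3, chromosome 16, 53467889 to 53525561) encodes p130, the retinoblastoma relative that represses cell cycle genes in resting cells. Its values of 13.0, 12.6 and 13.2 FPKM went to 14.8, 15.3 and 15.4, a ratio of 1.17.

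KLHL24 and TXNIP, genes of protein turnover and of redox and glucose control, moved in opposite directions. KLHL24 (ENSG00000114796.15_2, chromosome 3, 183353356 to 183402265) encodes a substrate adaptor of the cullin 3 ubiquitin ligase. It had 4.42, 4.39 and 4.38 FPKM with the empty vector and 6.84, 6.26 and 5.86 with LINC00888. The empty vector libraries were nearly equal, the groups did not overlap, and the ratio was 1.44. In the GRCh38 annotation of GENCODE release 29, KLHL24 lies on the same strand as LINC00888 and 179.6 kb away, with 1 coding gene, KLHL6, between them. TXNIP (ENSG00000265972.5_2, chromosome 1, 145438469 to 145442635) encodes an arrestin-like protein that binds thioredoxin and limits glucose uptake. It had 33.9, 33.4 and 34.3 FPKM with the empty vector and 22.6, 15.1 and 16.5 with LINC00888. LINC00888 library 1 was above libraries 2 and 3 but still below every empty vector library, and the ratio of 0.534 was 0.467 without it.

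Of the 10 genes, 7 were higher in every LINC00888 library than in any empty vector library, 2 (SESN2 and TXNIP) were lower and 1 (SESN1) overlapped. Groups did not overlap in 38.3% of the 11726 genes tested, 23.5% higher and 14.8% lower. All 10 passed the filter on low values. In the limma fit 4 had an adjusted p under 0.05 and a higher estimate (SESN3, TNFSF10, KLHL24 and RBL2) and 2 a lower one (SESN2 and TXNIP). The background over all genes was 13.5%, with 8.02% higher and 5.46% lower, and since the genes were chosen on this comparison nothing is read from their count. The median log2 fold change was 0.31 in the set and 0.03 over all genes tested. When 1 library was left out, RBL2 was past the threshold in none of the 6 fits, SESN2 only without LINC00888 library 2, and TXNIP only without LINC00888 library 1 or 2.

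**Figure D2:**
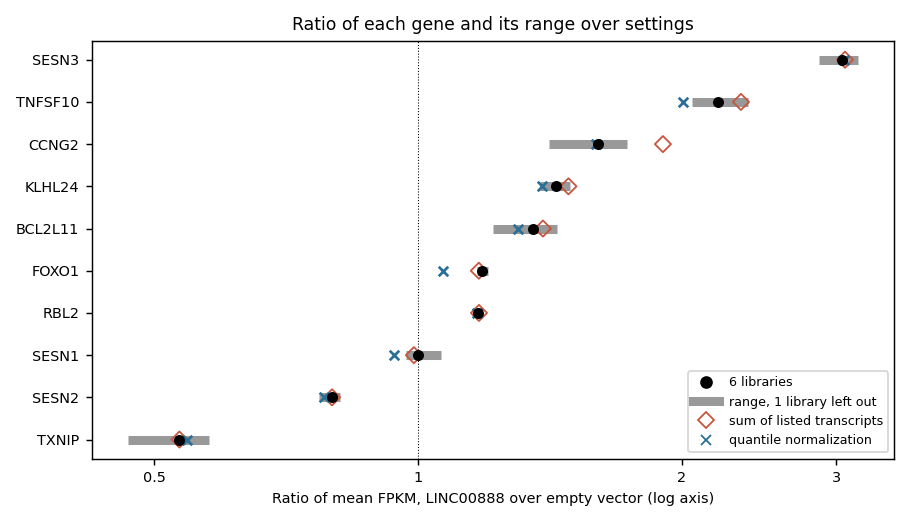
Ratio of mean FPKM, LINC00888 over empty vector, on a log axis, for each gene with all 6 libraries (black point), its range when 1 library is left out (grey bar), from the sum of its listed transcripts (open diamond) and after quantile normalization (cross). SESN3 stays between 2.87 and 3.17 and TXNIP between 0.467 and 0.578 when a library is left out, and CCNG2 is higher by its transcripts (1.90) than by its gene value (1.60).

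The order of the levels changed between the groups. With the empty vector it ran from TXNIP (33.8 ± 0.446 FPKM, SD, n = 3) through RBL2 (13.0 ± 0.31), SESN3, CCNG2 (9.01 ± 2.13), SESN2 (7.68 ± 0.238), KLHL24 (4.40 ± 0.0203), BCL2L11 (4.02 ± 0.77), SESN1 and FOXO1 (1.32 ± 0.0403) to TNFSF10 (0.915 ± 0.118). The ranges of SESN3 and CCNG2, CCNG2 and SESN2, KLHL24 and BCL2L11, and BCL2L11 and SESN1 overlapped, so these neighbours were not separated. With LINC00888, SESN3 stood first, followed by TXNIP (18.1 ± 3.97), RBL2 (15.1 ± 0.328), CCNG2 (14.4 ± 0.1), KLHL24 (6.32 ± 0.491), SESN2 (6.13 ± 0.364), BCL2L11 (5.43 ± 0.189), SESN1, TNFSF10 (2.01 ± 0.248) and FOXO1 (1.56 ± 0.0349). There the ranges of TXNIP and RBL2 and of KLHL24 and SESN2 overlapped. In rank among all listed genes SESN3 went from the 60.7th percentile in its lowest library to the 90.2nd in its highest.

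At the level of transcripts, 16 of the 20 passed the filter. Among these, the LINC00888 libraries were all higher for 9 and all lower for 2. Of 26941 transcripts tested, 19.9% did not overlap, 10.7% higher and 9.19% lower. In limma 1 of the 16, SESN3-203, was past the threshold, where the background was 0.379% of transcripts, 0.167% higher and 0.212% lower. It carries nearly all of the signal by which SESN3 was chosen, so nothing is read from this. SESN3-203, a transcript of 10 exons and 492 codons, had 11.1, 9.02 and 10.6 FPKM with the empty vector and 33.3, 28.9 and 31.4 with LINC00888. It made up 95.5% to 98.2% of the listed SESN3 signal in each library. The shorter SESN3-202, of 321 codons, was at most 0.373 FPKM with the empty vector and lay between 0.962 and 1.35 with LINC00888. SESN2, KLHL24, TNFSF10, TXNIP and FOXO1 each had 1 listed transcript, whose groups were ordered as those of the gene. RBL2-201 carried at least 93.7% of the RBL2 signal in every library.

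SESN1 and CCNG2 had transcripts from separate starts. SESN1-204, of 551 codons, was level across all libraries, between 2.15 and 2.62 FPKM. SESN1-202, of 492 codons from a start inside the gene, ranged from 1.85 to 3.80 FPKM with the empty vector and from 1.47 to 3.60 with LINC00888. In CCNG2 the long transcript CCNG2-201 had 11.8, 11.9 and 6.66 FPKM with the empty vector and 15.04, 14.6 and 13.5 with LINC00888, and so held the low value of empty vector library 3. CCNG2-202 encodes the same number of codons, 344, in a model of 1410 bases against 5526. It had 0.310, 2.68 and 1.13 FPKM with the empty vector and 8.78, 10.8 and 15.4 with LINC00888, and its share of the listed CCNG2 signal was 1.64%, 13.7% and 7.64% and then 27.8%, 32.7% and 42.1%. Both shares and levels of CCNG2-202 lay apart between the groups, but it did not pass the threshold in limma. Its highest empty vector value was 8.65 times its lowest. CCNG2-205, of 304 codons, differed less, at 6.55, 4.48 and 6.66 FPKM against 6.92, 6.82 and 7.43.

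BCL2L11 had 5 listed transcripts that changed places from library to library within a group. BCL2L11-206, of 198 codons, was 71.8% of the listed signal in empty vector library 2 and 77.3% in LINC00888 library 2, and between 3.92% and 14.9% in the other 4. BCL2L11-223 led in empty vector library 1 (52.0%) and LINC00888 library 1 (63.6%) and was listed at 0 in empty vector library 3 and LINC00888 library 2. BCL2L11-220 led in the remaining pair, with 42.9% and 64.2%, and was listed at 0 in empty vector library 2. The sum over the 5 was 5.87, 4.20 and 6.04 FPKM with the empty vector and 7.64, 7.28 and 7.44 with LINC00888, without overlap. No transcript of BCL2L11 kept its groups apart.

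**Figure D3:**
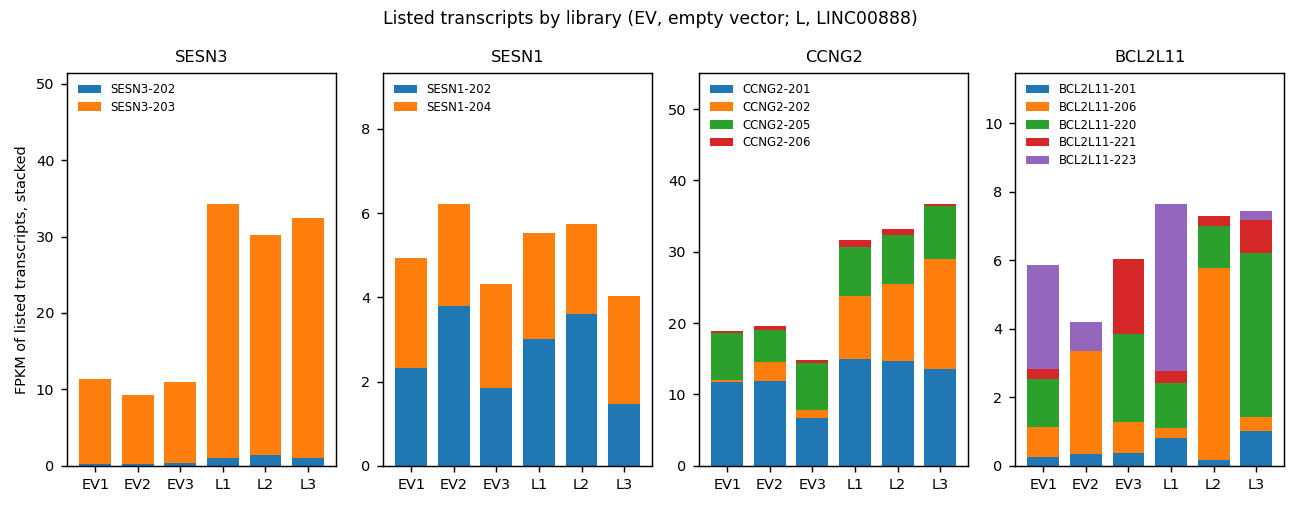
Stacked FPKM of the listed transcripts of SESN3, SESN1, CCNG2 and BCL2L11 in each library (EV, empty vector; L, LINC00888); each axis starts at 0. SESN3 is nearly all SESN3-203, CCNG2-202 goes from at most 2.68 to at least 8.78 FPKM, and the BCL2L11 transcripts trade places between libraries. The BCL2L11 sum lies between 4.20 and 6.04 FPKM with the empty vector and between 7.28 and 7.64 with LINC00888.

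The nearest listed gene on each side of the 10 genes was also read. Of these 20 neighbours, 1 rose and 1 fell, where 8.02% of all genes tested were higher and 5.46% lower. CXCL13, 78.4 kb after CCNG2, rose from 0.487 to 0.740 FPKM (limma adjusted p = 0.0481), and NCEH1, 106.7 kb after TNFSF10, fell from 9.37 to 7.88 FPKM (adjusted p = 0.0191). With an empty vector mean under 0.5 FPKM, CXCL13 is listed only through the LINC00888 group where it is high, so nothing is read from its call. Its distance is from the end of the CCNG2 gene entry, 78354542, while the long transcript CCNG2-201 ends at 78091212. Neither call was examined with a library left out. FAM76B, the next listed gene after SESN3 at 536.4 kb, had 5.32 and 6.82 FPKM (adjusted p = 0.0502), and ENDOD1 on the other side had 108.7 and 111.8 (adjusted p = 0.53). Beside KLHL24, MCCC1 had 22.2 and 25.0 FPKM (adjusted p = 0.0658) and YEATS2 had 5.34 and 6.30 (adjusted p = 0.168). AKTIP overlaps RBL2 on the opposite strand and had 5.63 and 5.43 FPKM (adjusted p = 0.761).

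The 5 genes whose centred log2 values were closest to those of SESN3 over the 6 libraries, among 11725, were CYP4F8, ADNP, NIPSNAP1, SYT4 and LPL. Their root mean square differences from SESN3 ran from 0.0416 to 0.251 log2 units, where the median gene had 0.778. The measure holds the group difference by which SESN3 was chosen, so genes with a like fold change come first by construction. A gene without change is far from SESN3 for the same reason. The list is a description, and nothing about shared control is read from it. CYP4F8, a cytochrome P450 fatty acid hydroxylase found in seminal vesicles, was closest, with 3.36, 2.62 and 3.21 FPKM with the empty vector and 10.9, 9.09 and 9.34 with LINC00888. As for SESN3, its lowest value was in empty vector library 2 and its highest in LINC00888 library 1. SYT4, a synaptotagmin of vesicle traffic, went from 2.28 to 6.56 and the lipase LPL from 13.2 to 28.7 FPKM.

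The genes around the sestrins and FOXO factors were read from 14 lists with 244 tested genes, of which 18 rose and 13 fell (12.7% called, against 13.5% of all genes tested). Their median log2 fold change was 0.02, against 0.03 over all genes. After median ratio scaling 15 rose and 21 fell, while over all genes 941 higher and 640 lower calls became 750 and 844. Of the 31 calls, those of SELENOP, DEPP1, SGK3, KLHL12 and TP53INP1 held without each of the 6 libraries. The other 26 were lost without at least 1.

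**Figure D4:**
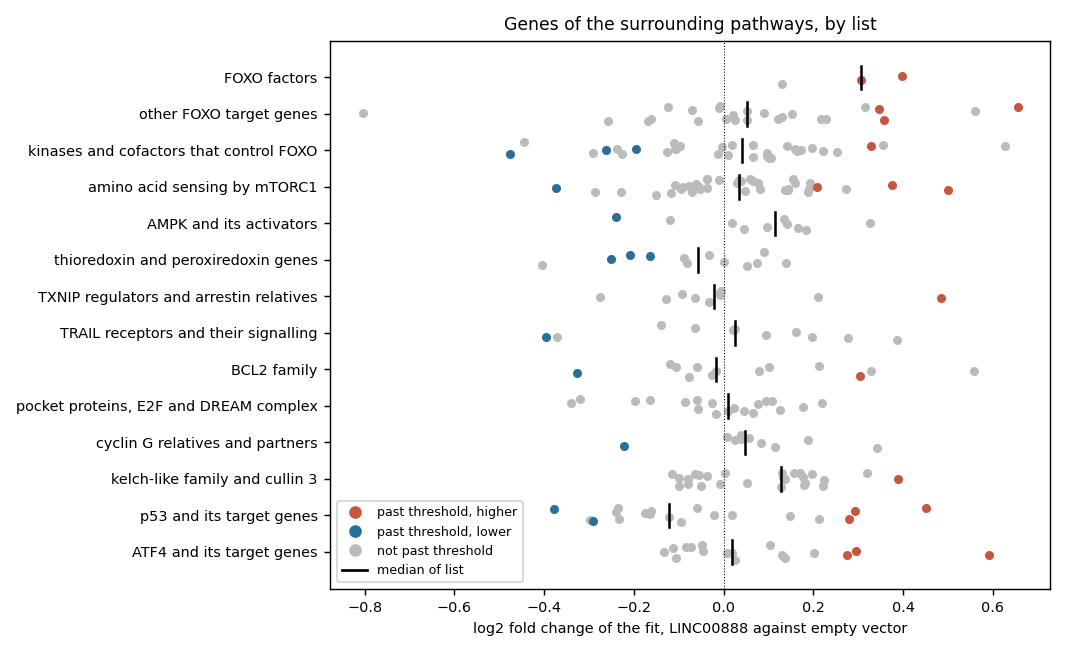
Log2 fold change of the fit for each tested gene of the 14 lists, with genes past the threshold in red (higher) or blue (lower), others in grey, and the median of each list as a black bar. Calls are scattered over both directions, 18 higher and 13 lower, and the medians lie between -0.12 (p53 and its target genes) and 0.31 (FOXO factors).

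Among other FOXO target genes, 3 of 25 rose and 0 fell, with a median log2 fold change of 0.05. DEPP1, a regulator of autophagy induced by FOXO, rose from 1.30 ± 0.117 to 2.33 ± 0.0704 FPKM (SD, n = 3; log2 fold change 0.66, adjusted p = 0.00647). SELENOP, a secreted selenium carrier, rose from 26.2 ± 0.513 to 33.7 ± 0.667 FPKM (log2 fold change 0.36, adjusted p = 0.00428). The autophagy gene ATG14 rose from 2.64 to 3.50 FPKM (adjusted p = 0.0221), a call lost without any one library except empty vector library 2 (adjusted p up to 0.0744), and after quantile normalization and cyclic loess. The classical cell cycle targets CDKN1B (p27; 32.7 and 35.7 FPKM, adjusted p = 0.221) and CDKN1A (p21; 19.6 and 16.3 FPKM, adjusted p = 0.0728) did not pass. GADD45A, a DNA damage and growth arrest gene, had 6.14, 9.11 and 7.76 FPKM with the empty vector and 9.66, 15.9 and 9.63 with LINC00888 (adjusted p = 0.179).

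Of 32 kinases and cofactors that control FOXO, 1 rose and 3 fell (median log2 fold change 0.04). SGK3, a kinase related to AKT that acts on endosomes, fell from 6.60 ± 0.0573 to 4.61 ± 0.322 FPKM (SD, n = 3; log2 fold change -0.48, adjusted p = 0.00842). USP7, a deubiquitinase of FOXO and of MDM2, fell from 18.0 to 14.9 FPKM (adjusted p = 0.0165), a call that ended on removal of EV1, L2 or L3 (up to 0.0551), where EV and L number the libraries of each group. The adaptor YWHAG, one of the proteins that hold phosphorylated FOXO in the cytoplasm, fell from 156.5 to 136.7 FPKM (adjusted p = 0.0165). That call ended on removal of EV3, L2 or L3 (up to 0.0653), and after quantile normalization and cyclic loess. SKP2, a ubiquitin ligase subunit that acts on FOXO1 and p27, rose from 7.45 to 9.46 FPKM (adjusted p = 0.0396), which ended on removal of any library except EV1 (up to 0.115). The kinases AKT1 (8.90 and 9.61 FPKM, adjusted p = 0.446) and AKT2 (6.57 and 7.05, adjusted p = 0.322) did not pass.

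In the amino acid sensing system of mTORC1, where sestrins act, 3 of 37 genes rose and 1 fell (median log2 fold change 0.03). RRAGD, a RAG GTPase that recruits mTORC1 to lysosomes, rose from 3.49 to 5.17 FPKM (adjusted p = 0.0228), and folliculin, FLCN, which acts on RRAGC and RRAGD, rose from 4.68 to 6.23 (adjusted p = 0.0275). RRAGC rose from 5.74 to 6.71 FPKM (adjusted p = 0.0466), and WDR24, a subunit of GATOR2, fell from 4.37 to 3.26 (adjusted p = 0.0424). The calls of WDR24 and RRAGC were lost without any one library (adjusted p up to 0.112 and 0.129), and that of RRAGC also after median ratio scaling, quantile normalization and cyclic loess. Those of RRAGD (ended on removal of any library except L1, up to 0.0723) and FLCN (ended on removal of EV2, EV3, L1 or L2, up to 0.0863) depended on most libraries. Among 10 genes of AMPK, the energy sensor that sestrins can bind, and its activators, PRKAA1 fell from 24.6 to 20.8 FPKM (adjusted p = 0.0208; ended on removal of any library except EV2, up to 0.0678) and 0 rose (median log2 fold change 0.12).

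Around TXNIP, 1 of 10 regulators and arrestin relatives rose and 0 fell (median log2 fold change -0.02). MLXIPL, which encodes the glucose-responsive factor ChREBP known to activate TXNIP, rose from 1.22 ± 0.0656 to 1.91 ± 0.255 FPKM (SD, n = 3; adjusted p = 0.0256), a call that ended on removal of any library except L3 (up to 0.0818). The arrestin relatives ARRDC3 (7.56 and 7.52 FPKM, adjusted p = 0.929) and ARRDC4 (3.93 and 3.91, adjusted p = 0.959), also known targets of the glucose response, did not pass, nor did ARRDC1 (8.97 and 8.36, adjusted p = 0.35) and ARRDC2 (3.72 and 4.38, adjusted p = 0.0701). The glucose transporter SLC2A1 had 10.8 and 8.86 FPKM (adjusted p = 0.0554). Of 12 genes on the list of thioredoxin and peroxiredoxin genes, which also holds SRXN1, SQSTM1 and KEAP1, 3 fell and 0 rose (median log2 fold change -0.06). These were PRDX6 (174.5 to 150.9 FPKM, adjusted p = 0.0278), PRDX4 (59.7 to 49.96, adjusted p = 0.0389) and the autophagy receptor SQSTM1 (36.9 to 32.9, adjusted p = 0.0275). PRDX6 lost its call on removal of EV2, EV3, L1 or L2 (adjusted p up to 0.0882), PRDX4 on removal of any library except EV3 (up to 0.107) and SQSTM1 without any one (up to 0.0914). PRDX4 and SQSTM1 also lost theirs under quantile normalization and under cyclic loess, and all 3 did with eBayes without trend and robust. Thioredoxin, TXN, was at 158 FPKM in both groups (adjusted p = 0.989).

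Around TNFSF10, 1 of 11 genes of the TRAIL receptors and their signalling fell and 0 rose (median log2 fold change 0.03). The initiator caspase CASP8 fell from 5.16 to 3.80 FPKM (adjusted p = 0.0273; ended on removal of any library except EV3, up to 0.0884). The death receptors TNFRSF10A (11.2 and 10.7 FPKM, adjusted p = 0.583) and TNFRSF10B (31.5 and 33.7, adjusted p = 0.143) and the decoy receptor TNFRSF10D (13.9 and 16.9, adjusted p = 0.0585) did not pass. Around BCL2L11, 1 of 13 genes of the BCL2 family rose and 1 fell (median log2 fold change -0.02). The pore-forming BAX fell from 12.2 to 9.58 FPKM (adjusted p = 0.0133, lost without LINC00888 library 1, 0.0529). Its relative BOK rose from 22.1 to 27.4 FPKM (adjusted p = 0.0382), a call lost without any one library (up to 0.1), after median ratio scaling and with eBayes without trend and robust.

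Around RBL2 and CCNG2 few genes passed. Of 19 pocket protein, E2F and DREAM complex genes 0 rose and 0 fell in limma (median log2 fold change 0.01, with 2 at an unadjusted p under 0.05). The related pocket proteins RB1 (12.7 and 12.2 FPKM, adjusted p = 0.485) and RBL1 (4.49 and 5.13, adjusted p = 0.165) did not pass. Of 10 cyclin G relatives and partners, the phosphatase subunit PPP2CA fell from 36.4 to 31.1 FPKM (adjusted p = 0.0297; ended on removal of any library except EV3, up to 0.0933) and 0 rose (median log2 fold change 0.05). CCNG1 had 25.6 and 29.2 FPKM (adjusted p = 0.108). In the family of KLHL24, 1 of 26 kelch-like and cullin 3 genes rose and 0 fell (median log2 fold change 0.13). KLHL12, an adaptor in collagen secretion, rose from 22.7 ± 1.17 to 29.8 ± 0.482 FPKM (limma adjusted p = 0.00735; SD, n = 3). The log2 fold changes of the other 24 tested KLHL genes ran from -0.12 to 0.39. KLHL24 itself, at 0.48 in the same fit, is not among the 26 or the 24.

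The other known inducers of sestrins, p53 and ATF4, were read through their targets. Of 19 genes of p53 and its targets 3 rose and 2 fell (median log2 fold change -0.12). TP53INP1, a stress-induced autophagy protein, rose from 16.4 ± 0.757 to 22.6 ± 1.52 FPKM (limma adjusted p = 0.00995; SD, n = 3). The antiproliferative gene BTG2 rose from 12.1 to 14.9 (adjusted p = 0.0223) and ZMAT3 from 3.82 to 4.74 (adjusted p = 0.0232). PHLDA3, an inhibitor of AKT, fell from 9.51 to 7.68 FPKM (adjusted p = 0.0143) and the kinase PLK3, chosen after its values were seen, from 1.33 to 0.908 (adjusted p = 0.0438). The calls of ZMAT3 and PLK3 were lost without any one library (up to 0.0793 and 0.117), that of BTG2 on removal of EV2, EV3, L1 or L2 (up to 0.0761) and that of PHLDA3 on removal of EV3 or L2 (up to 0.0551). MDM2 had 7.94 and 6.36 FPKM (adjusted p = 0.166).

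Of 17 genes of ATF4 and its targets 3 rose and 0 fell (median log2 fold change 0.02). The secreted hormone STC2 rose from 19.4 to 23.6 FPKM (adjusted p = 0.014; 0.0505 on removal of EV3) and the glutathione-degrading enzyme CHAC1 from 4.77 to 7.41 (adjusted p = 0.0294). The lipoprotein receptor VLDLR rose from 1.93 to 2.49 FPKM (adjusted p = 0.037), a call lost without any one library (up to 0.102) and under each other scaling tried. The call of CHAC1 ended on removal of any library except EV2 (up to 0.0842) and after cyclic loess. ATF4 itself had 234 and 213 FPKM (adjusted p = 0.0554).

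The empty vector libraries had 10671 to 10709 genes at an FPKM of 1 or more and the LINC00888 libraries 10812 to 10869, without overlap. Mitochondrial genes took 17.6% to 18.35% of the summed FPKM with the empty vector and 18.38% to 19.7% with LINC00888, also without overlap, and the part of either difference in the results was not tested. The libraries had a correlation of log2 values of 0.984 to 0.985 within groups and 0.977 to 0.979 between them. All 9 prostate luminal markers were listed, with a summed FPKM of 1287 to 1303 in the empty vector libraries and 1320 to 1339 with LINC00888. Of 6 fibroblast, 5 leukocyte and 3 endothelial markers, 2, 1 and 1 were listed, with sums of at most 3.87, 0.966 and 0.559 FPKM in any library. Sequencing depth is not given by the tables, so no counting error could be attached to these values.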

How the data were processed

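Strand-specific libraries of polyA-selected RNA were read as paired ends for 150 cycles, per the labels' protocols. Tools given in the submitters' processing notes are HISAT2, StringTie, cutadapt and FastQC, with no version. The build named there is GRCm38 of the mouse, while the tables hold human Ensembl identifiers. The values are FPKM per the file headers, computed by the authors for each library. Each listed feature had a mean of at least 0.5 FPKM in at least 1 group, so lower genes are not seen. One transcript line emptied for this work was not used. The gene FPKM need not be the sum of the transcripts listed for that gene. In the set the 2 were equal for SESN2, while for CCNG2 the gene value was 0.396 to 0.536 of the sum.

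Features that reached 0.5 FPKM in 3 or more libraries (11726 genes, 26941 transcripts) were taken as log2(FPKM + 0.5) and compared with limma 3.58.1 in R 4.3.3. Settings were eBayes with trend and robust, two-sided, Benjamini-Hochberg over all features, threshold 0.05. The procedure was also run on simulated libraries drawn independently of each other. Such a run cannot show the effect of libraries that are not independent or of differences between sublines. The fold change of the fit understates changes at low FPKM. The genes of the set and the 14 lists were chosen with earlier results of these data known. From each list up to 4 called genes with the smallest p, family relatives, nearest neighbours and the 5 genes most like SESN3 were named. Promoter sequences are RefSeq's, GRCh38.p14, and transcript models GENCODE release 29. Alternatives were other pseudocounts, filters, scalings, variance models, a replicate block and leaving out each library. A p-value here reflects only how these libraries vary, which may be technical.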

Additional observations from a re-analysis of the deposited data

How the results depend on the processing

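The number of genes past the threshold, 1581, was between 536 and 815 when 1 library was left out, that of transcripts, 102, between 22 and 45, that of the 10 sestrin and FOXO target genes, 6, between 3 and 5, and that of the genes on the pathway lists, 31, between 8 and 15. With the replicate number as a block these counts were 429, 0, 2 and 5. With the block, 0 transcripts passed in limma. Of the set, SESN3 and KLHL24 kept their calls with the block, and SESN2, TNFSF10, TXNIP and RBL2 lost theirs. The numbers 1 to 3 are shared by the groups, but nothing in the labels pairs the libraries. Deviations of same-numbered libraries correlated between -0.0347 and 0.0377, and not every library correlated best with its own number. Correlations this small cannot decide the question, so whether the libraries are paired is not known. Pseudocounts, filters, other scalings and eBayes without trend and robust kept each of these 4 counts within 1.5 times. The ratio of FOXO1, 1.18, was 1.07 after quantile normalization. The other ratios of the set moved by less than the spread between replicates under median ratio scaling, quantile normalization and the sum of listed transcripts. Depth is not known, which leaves low genes such as TNFSF10 and FOXO1 without a counting error.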
